A study of Drosophila melanogaster with 96 samples.

Results

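The cecropin genes of Drosophila melanogaster, CecA1, CecA2, CecB and CecC, were followed by their symbols through a table of 17698 genes in heads of adult flies. All 4 were found, and all 4 passed the filter on low values, which kept 10568 genes. The study asked how Achl, which encodes a putative RNA-binding protein, bears on daily mRNA rhythms in each sex. It compared females carrying Achl RNAi with female controls and males carrying Achl RNAi with male controls, 24 libraries in each of the 4 groups. Flies were 3 to 5 days old, were kept at 25 °C with 12 h of light and 12 h of darkness, and were held in constant darkness from 24 h before collection began. Each library was made from 7 to 8 heads, and each group gave 1 library at every even circadian time (CT) between CT24 and CT70. The sources used here do not name the driver of the RNAi, the RNAi line or the construct or strain of the controls.

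Cecropins are short secreted peptides that fold into helices and break bacterial membranes, chiefly those of Gram-negative bacteria. In flies the genes are nearly silent until infection, when the fat body, blood cells and some epithelia transcribe them. The Imd pathway, which senses bacterial peptidoglycan and ends at the NF-kappaB factor Relish, is their main switch, and the Toll pathway adds to it. CecA1 and CecA2 encode the same mature peptide, and CecB and CecC are also known for expression in pupae.

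The 4 genes lie together on chromosome 3R (dm6) within 6065 bases. CecA1 (FBgn0000276) spans 30210874 to 30211273 on the plus strand and CecA2 (FBgn0000277) 30212156 to 30212568 on the plus strand. CecB (FBgn0000278) spans 30213315 to 30213797 on the minus strand and CecC (FBgn0000279) 30216484 to 30216938 on the plus strand. Each is a protein-coding gene of 2 exons, with 1 intron of 58 to 69 bases inside the coding sequence and 63 codons. The pseudogene Cec-Psi1 lies between CecA1 and CecA2, and the pseudogene Cec2 between CecA2 and CecB. Because CecA1 and CecA2 are close copies, the split of reads between them is uncertain, and their sum is given beside them.

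Values are TPM, a level of transcripts scaled for gene length and to the same total in each library, so levels can be set side by side between genes. Sequencing depth is unknown, no time point was replicated, and nothing says that the pools of heads came from separate cultures, so errors and p-values measure only the spread between these libraries. Correlations between libraries lay between 0.927 and 0.994. By mt:lrRNA, an RNA of mitochondrial ribosomes, the female libraries made 2 sets: 15 female Achl RNAi and 14 female control libraries were under 50000 TPM, 12 of them in each group from the second day, and no male library was. Achl itself was lower under its RNAi, with log2 differences of -2.01 (SE 0.10, adjusted p = 3.5e-31 by limma) in females and -1.63 (SE 0.10, adjusted p = 1.9e-25) in males. Its medians were 15.9 TPM in female Achl RNAi heads against 69.5 TPM in female controls and 22.2 TPM in male Achl RNAi heads against 74.8 TPM in male controls.

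The first comparison was the level of each gene in Achl RNAi heads against control heads. All 4 genes rose strongly in both sexes, and each was higher in the Achl RNAi library at all 24 CTs in females and at all 24 in males. CecA1 reached the highest level, with a median of 700.2 TPM in female Achl RNAi heads against 2.35 TPM in female controls and of 1371 TPM in male Achl RNAi heads against 1.33 TPM in male controls. Together the 4 genes made up a median of 0.120% of all TPM in female Achl RNAi heads against 0.000612% in female controls, and 0.203% in male Achl RNAi heads against 0.000321% in male controls. CecB, the least abundant, had a median of 31.9 TPM in female Achl RNAi heads against 0.325 TPM in female controls.

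**Figure D1:**
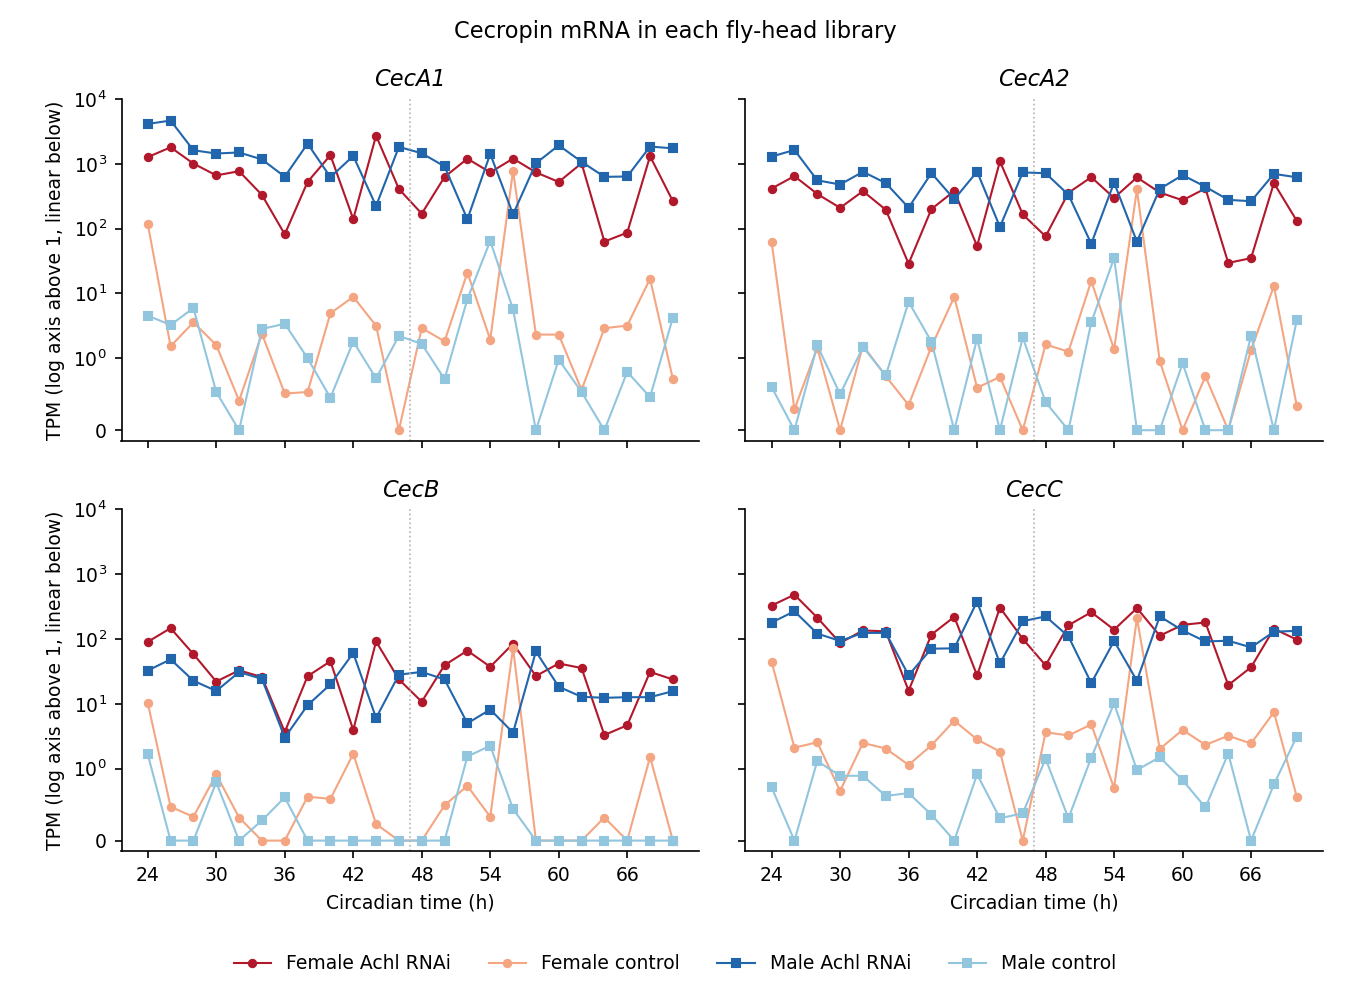
TPM of each cecropin gene in every library (y axis, log above 1 and linear below) against circadian time in h (x axis), for female and male Achl RNAi and control heads, with a dotted line between the 2 days of collection. Achl RNAi libraries run above the control library of the same CT throughout, and the female control library of CT56 stands at 784 TPM for CecA1.

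CecA1 lay between 63.1 and 2719.9 TPM in female Achl RNAi heads, and between 0 and 784 TPM in female controls. Its lowest Achl RNAi values in females were at CT64, CT36 and CT66, and 2 female control libraries, at CT24 and CT56, were above the lowest of them. In males CecA1 lay between 139.6 and 4649 TPM in Achl RNAi heads, and between 0 and 64.6 TPM in controls, so the male groups did not overlap. The mean difference in log2(TPM + 1), a scale that understates changes of genes near 0, was 6.76 (SE 0.45, adjusted p = 1.7e-23) in females and 8.51 (SE 0.45, adjusted p = 5.6e-30) in males by limma.

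CecA2 followed with a median of 319.9 TPM in female Achl RNAi heads (28.7 to 1092) against 1.11 TPM in female controls (0 to 401.6). In males its median was 509 TPM in Achl RNAi heads (58.4 to 1634) against 0.68 TPM in controls (0 to 35.3). The log2 difference was 6.15 (SE 0.44) in females and 7.67 (SE 0.44) in males by limma. The sum of CecA1 and CecA2 depends less on the split of reads between them, but is not free of it, as their lengths differ (339 and 355 bases). It had a median of 1010 TPM in female Achl RNAi heads against 3.21 TPM in female controls, and of 1927 TPM in male Achl RNAi heads against 2.93 TPM in male controls.

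CecC had a median of 137 TPM in female Achl RNAi heads (15.9 to 483) against 2.47 TPM in female controls (0 to 210.5). In males it had 115.45 TPM in Achl RNAi heads (20.9 to 378) against 0.81 TPM in controls (0 to 10.1). Its log2 difference was 4.78 (SE 0.34, adjusted p = 8.8e-22) in females and 5.76 (SE 0.34, adjusted p = 7.0e-27) in males by limma. In female controls its median stood beside that of CecA1, while under Achl RNAi it was far below it.

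CecB lay between 3.30 and 147 TPM in female Achl RNAi heads and between 0 and 73.7 TPM in female controls. In males it had a median of 17.04 TPM in Achl RNAi heads (3.01 to 64.2), and was listed at 0 in 17 of 24 controls, with a highest control value of 2.25 TPM. The log2 difference was 4.07 (SE 0.32) in females and 3.86 (SE 0.32) in males by limma. Its values near 0 in controls limit this difference, which rises to 5.94 in females and 6.40 in males with a pseudocount of 0.1. CecB reached 1 TPM in 4 female and 3 male controls, and CecA2 in 12 and 10. Both thus passed the filter of 1 TPM in 24 libraries only with the Achl RNAi libraries. No limma p-value is therefore given for their differences from controls.

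**Figure D2:**
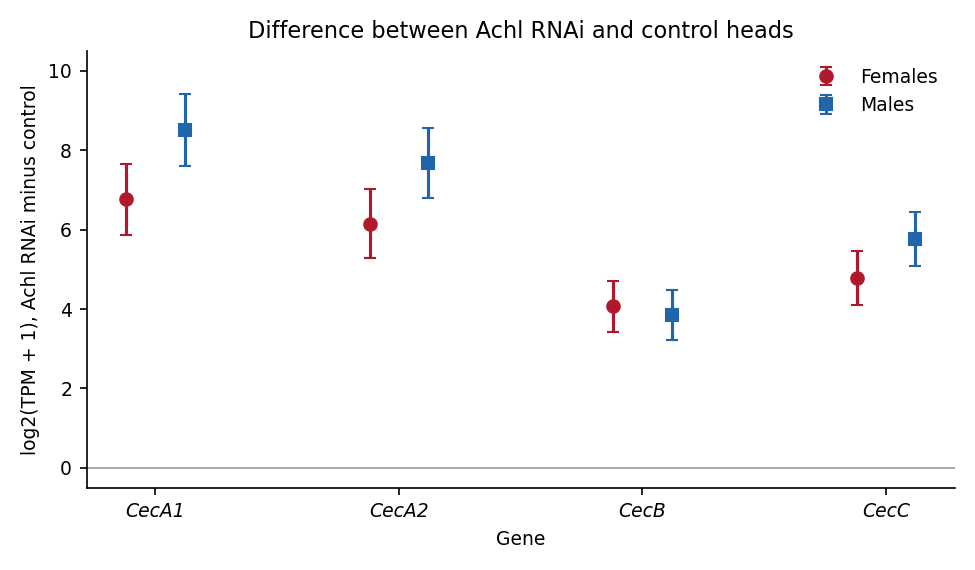
Difference in mean log2(TPM + 1), Achl RNAi minus control (y axis), for each cecropin gene (x axis), females left and males right, with 95% confidence intervals from limma. CecA1 stands highest in both sexes, at 6.76 in females and 8.51 in males.

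CecA1 and CecC were called higher in both sexes, where 4.70% of all tested genes were called higher in females and 4.61% in males. CecA2 and CecB were higher too, but their calls are not counted, as they passed the filter only with the Achl RNAi libraries. The median difference of all tested genes was -0.18 in females and -0.16 in males. Among all tested genes, 0.284% had every female Achl RNAi library above every female control library, and none of the cecropin genes did. In males 0.681% had every Achl RNAi library above every control library, and all 4 cecropin genes did. With the 24 same-CT differences alone, a sign-flip permutation test (100000 resamples, two-sided) gave adjusted p = 1e-05 for each gene in each sex, the smallest it can give. The smallest same-CT difference in females was that of CT56 for all 4 genes, at 0.20 for CecB to 0.62 for CecA1 and CecA2.

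Control libraries with high values had all 4 genes high together. The female control library of CT56 had 784 TPM of CecA1, 401.6 TPM of CecA2, 73.7 TPM of CecB and 210.5 TPM of CecC, above the median of female Achl RNAi heads for each gene. That of CT24 had 118 TPM of CecA1, 62.1 TPM of CecA2, 10.3 TPM of CecB and 44.6 TPM of CecC. The male control library of CT54 had 64.6 TPM of CecA1, 35.3 TPM of CecA2, 2.25 TPM of CecB and 10.1 TPM of CecC. Without these 3 libraries, a choice made after their values were seen, the log2 difference of CecA1 was 7.30 in females and 8.68 in males, and that of CecB 4.44 in females and 3.91 in males. DptA, which encodes the antibacterial peptide diptericin, also had its highest values of female and male controls at CT56 and CT54, at 3335 TPM and 422 TPM.

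Of the neighbours within 20 kb, Anp, which encodes andropin, a related peptide of the male ejaculatory duct, starts upstream of CecA1 with 491 bases between them. Its median was 0 TPM in female Achl RNAi heads and 0.57 TPM in male Achl RNAi heads, against 0 TPM in controls of both sexes. A list of 4 markers of the male reproductive tract that includes Anp summed to at most 4.60 TPM in any library, and Acp26Aa and SP had a median of 0 TPM in every group. RpS7, a ribosomal protein gene on the other side of Anp, had a log2 difference of -0.18 (adjusted p = 0.052) in females and -0.46 (SE 0.084, adjusted p = 4.3e-06) in males by limma. CG9743 had -0.13 in females and -0.22 in males, neither called.

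**Figure D3:**
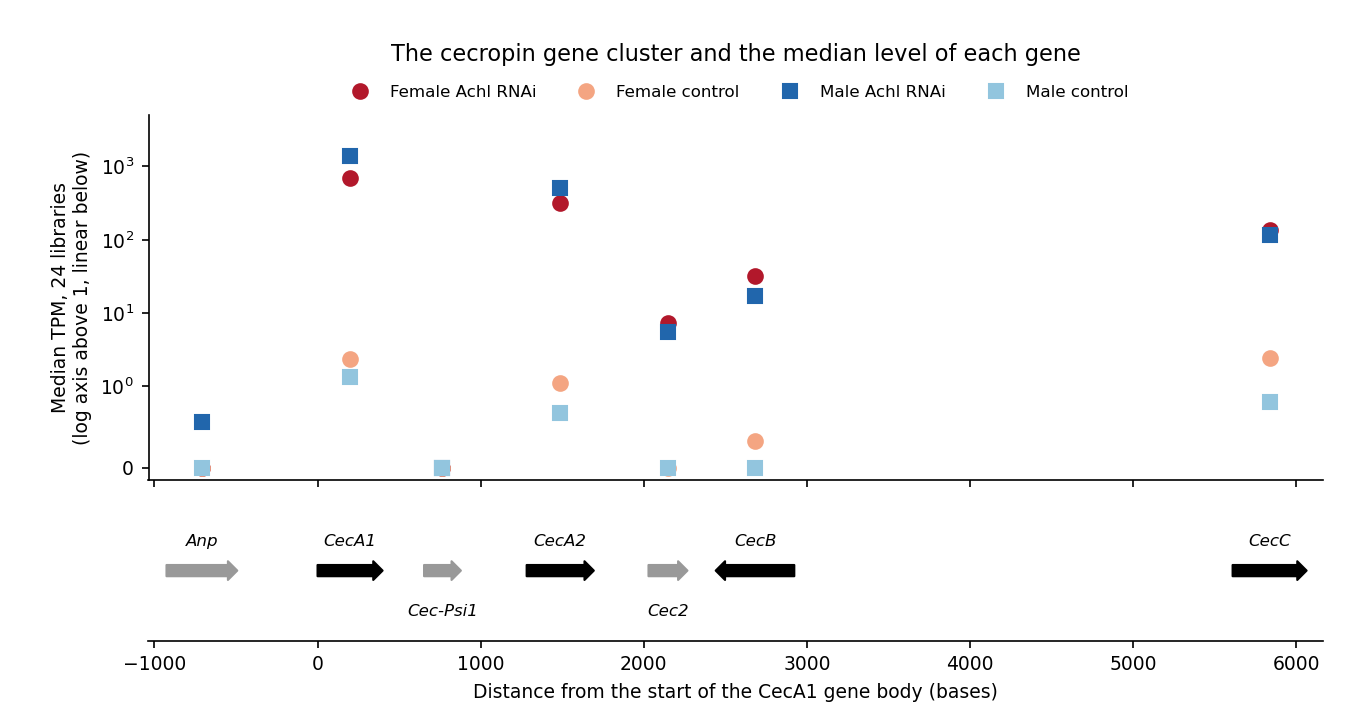
Median TPM over 24 libraries (y axis, log above 1 and linear below) of each gene of the cluster against distance in bases from the start of CecA1 (x axis), with arrows for the gene bodies and their strand, black for the cecropin genes and grey for Anp and the pseudogenes. CecA1 and CecA2 stand above CecC and CecB in Achl RNAi heads, and the pseudogene Cec2 has medians of 7.24 TPM in female and 5.52 TPM in male Achl RNAi heads.

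The pseudogene Cec2 was listed above 0 in 22 of 24 female and 24 of 24 male Achl RNAi libraries, and in 0 of 48 controls. Its median was 7.24 TPM in female Achl RNAi heads against 0 TPM in female controls and 5.52 TPM in male Achl RNAi heads against 0 TPM in male controls. In the female control library of CT56 it was listed at 0 although CecA1 stood at 784 TPM there. Among the 15 female Achl RNAi libraries with no more CecA1 than that, 13 had Cec2 above 0. The log2 difference of Cec2 was 2.69 in females and 2.59 in males by limma. It reached 1 TPM in 19 female and 21 male Achl RNAi libraries and in no control. Cec2 thus passed the filter through the Achl RNAi libraries alone, and no p-value is given for it. Cec-Psi1 was above 0 in 7 female and 8 male Achl RNAi libraries and in 0 controls, with at most 3.91 TPM. Reads of the pseudogenes and of the intact genes may be shared by the authors' quantification, so these values are uncertain.

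The order of levels was the same in both sexes under Achl RNAi: CecA1, CecA2, CecC, CecB. This is also their order of deposited length from short to long, at 339, 355, 386 and 425 bases. The part of length in the order was not tested. CecA1 exceeded CecA2 in 24 of 24 libraries of each sex, by 1.25 ± 0.28 in females and 1.33 ± 0.22 in males (log2, SD, n = 24). CecA2 exceeded CecC in 23 of 24 female and 24 of 24 male libraries, and CecC exceeded CecB in 24 of 24 of each. Every one of the 6 pairs differed in both Achl RNAi groups (sign-flip permutation test, adjusted p = 1.6e-05 over 24 tests). In controls the levels were close to 0 and the order was less clear. CecA1 and CecC did not differ detectably in female controls (adjusted p = 0.31, permutation test), nor CecA2 and CecC in male controls (adjusted p = 0.50, permutation test).

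As a share of the summed cecropin TPM, CecA1 made up 58.8 ± 5.3% in female Achl RNAi heads and 38.9 ± 14.3% in female controls, over the 23 CTs where both sums reached 1 TPM. CecC made up 13.3 ± 3.8% in female Achl RNAi heads and 36.3 ± 15.8% in female controls. In males, over 22 CTs, CecA1 made up 65.9 ± 5.3% in Achl RNAi heads and 44.2 ± 26.3% in controls, and CecC 6.93 ± 3.28% in Achl RNAi heads and 27.7 ± 27.9% in controls. The higher share of CecA1 passed in both sexes (adjusted p = 2.7e-05 in females and 0.0015 in males, sign-flip permutation test over 8 tests), and so did the lower share of CecC (adjusted p = 2.7e-05 in each). The shares of CecA2 and CecB did not (adjusted p between 0.11 and 0.75, permutation test). Restricted to CTs where both sums reached 10 TPM, 6 in females and 4 in males, CecA1 kept a higher mean share, by 13.6 and 23.7 percentage points, and CecC a lower one, by -6.67 and -7.48, with adjusted p = 0.25 for each (exact permutation test). With 4 pairs the smallest exact p is 0.125. In the female control library of CT56, the control with most cecropin RNA, the shares were 53.3% CecA1, 27.3% CecA2, 14.3% CecC and 5.01% CecB.

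The next comparison was between the sexes. The effect of Achl RNAi on CecA1, female minus male, differed by -1.74 (SE 0.64) on the log2 scale, with adjusted p = 0.052 by limma, which misses the threshold of 0.05. That difference was -1.52 (SE 0.62, adjusted p = 0.096) for CecA2, 0.21 (SE 0.45, adjusted p = 0.85) for CecB and -0.98 (SE 0.48, adjusted p = 0.18) for CecC. None of the 4 was called, where 14.1% of all tested genes were. The 95% interval of the difference reached from -3.01 to -0.48 for CecA1 and from -0.69 to 1.11 for CecB. With the CT as a replicate block shared by the 4 groups, CecA1 passed (adjusted p = 0.044), and without the 3 high control libraries it had -1.38 (adjusted p = 0.049).

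Between the Achl RNAi groups themselves, CecA1 was lower in females, with a log2 difference (female minus male) of -0.98 (SE 0.45, adjusted p = 0.043), and CecB was higher in females, with 0.70 (SE 0.32, adjusted p = 0.042), both called by limma. CecA2 had -0.90 (SE 0.44, adjusted p = 0.059) and CecC 0.21 (SE 0.34, adjusted p = 0.58), neither called. As many as 74.0% of all tested genes were called between the sexes under Achl RNAi, so 2 of 4 called does not set the cecropin genes apart. Both calls were lost on each day taken alone, and leaving out a single library ended the call of CecA1 for 24 of 96 libraries and that of CecB for 18 of 96. Within female libraries of high mt:lrRNA, the set whose mt:lrRNA is nearer to that of males, CecA1 had -0.72 (adjusted p = 0.24) and CecB 0.75 (adjusted p = 0.069).

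The make-up of cecropin RNA also differed between the sexes, in a comparison added after the values were seen. CecC made up 13.3 ± 3.8% in female Achl RNAi heads and 6.89 ± 3.14% in male Achl RNAi heads, and was higher in females at 21 of 24 CTs. CecB made up 3.08 ± 0.89% in female and 1.22 ± 0.79% in male Achl RNAi heads, and was higher in females at 22 of 24 CTs. CecA1 made up 58.8 ± 5.2% in female and 65.8 ± 5.1% in male Achl RNAi heads, and was higher in females at 4 of 24 CTs. The sign-flip permutation test gave adjusted p = 1.0e-04 for CecC, 4.0e-05 for CecB and 3.6e-04 for CecA1, and 0.080 for CecA2, whose shares were 24.8 ± 3.2% in female and 26.1 ± 2.2% in male Achl RNAi heads.

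**Figure D4:**
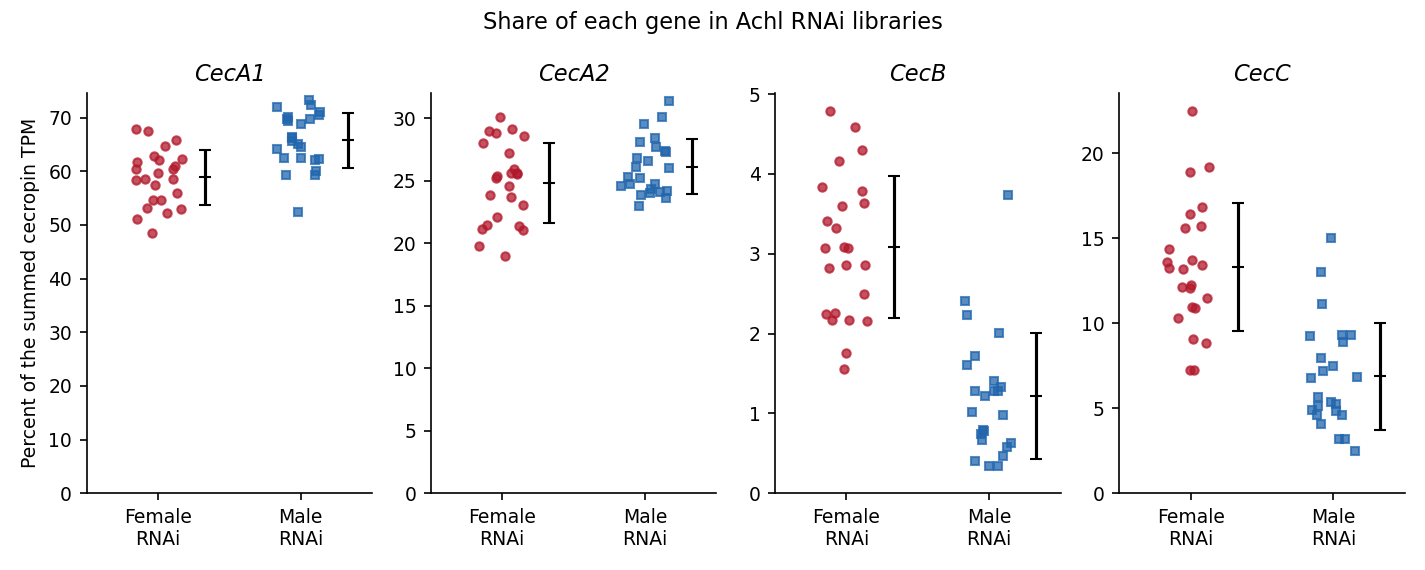
Share of each gene in the summed TPM of the 4 cecropin genes (y axis, percent, each panel with its own scale from 0) in female and male Achl RNAi libraries (x axis); bars give mean ± SD over 24 libraries. CecB and CecC make up 3.08% and 13.3% in female heads, and 1.22% and 6.89% in male heads.

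The shares of CecB and CecC were higher in females within each set of female libraries too. Over the 9 CTs with a female library of high mt:lrRNA, the difference was 1.75 percentage points for CecB (adjusted p = 0.031) and 5.28 for CecC (adjusted p = 0.042, exact permutation test), and over the 15 CTs of low mt:lrRNA it was 1.94 and 7.10 (adjusted p = 4.1e-04 for each, exact permutation test). CecA1 had -3.19 (adjusted p = 0.27) in the first set and -9.20 (adjusted p = 4.1e-04) in the other, by the same exact permutation test. On the first day alone CecB and CecC passed (adjusted p = 0.0039 and 0.0052, exact permutation test), while CecA1 had -5.26 percentage points (adjusted p = 0.052). On the second day CecB, CecC and CecA1 all passed (adjusted p = 0.0033 for each, exact permutation test). Days and sets largely overlap, as 12 of the 15 female Achl RNAi libraries of low mt:lrRNA came from the second day. The genes of larger share in females are the longer ones, with deposited lengths of 425 bases for CecB and 386 for CecC against 339 for CecA1 and 355 for CecA2. Among other tested genes, the median log2 difference, female minus male Achl RNAi heads, was 0.092 for 77 genes of 300 to 350 bases. It was 0.020 for 94 genes of 350 to 400 bases and -0.11 for 110 genes of 400 to 450 bases. The part of gene length in these shares was not tested.

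In controls CecC was higher in females than in males, with medians of 2.47 TPM in female controls and 0.81 TPM in male controls, a log2 difference of 1.19 (SE 0.34, adjusted p = 0.0014 by limma). The other 3 genes were not called, with 0.76 for CecA1, 0.62 for CecA2 and 0.49 for CecB (adjusted p between 0.13 and 0.21 by limma). Of all tested genes 68.2% were called between the sexes in controls. The difference of CecC was 0.88 (adjusted p = 0.0031) without the 3 high control libraries, and 0.79 (adjusted p = 0.075) within female libraries of high mt:lrRNA.

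The cecropin genes varied far more between libraries of a group than most genes. The SD of log2(TPM + 1) lay between 1.28 for CecC and 1.48 for CecA1 in female Achl RNAi heads, where the median gene had 0.30. In male Achl RNAi heads it lay between 1.05 for CecC and 1.25 for CecA1, where the median gene had 0.22. The highest level of CecA1 was 43.1 times its lowest in female Achl RNAi heads and 33.3 times in male Achl RNAi heads. In female heads all 4 genes were low together at CT36, CT42, CT64 and CT66, with 15.9 to 36.7 TPM of CecC against its median of 137 TPM. These were the 4 lowest libraries for every gene. In male heads CT44, CT52 and CT56 were among the 4 lowest for every gene.

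This spread did not follow a daily course that passed the test. In female Achl RNAi heads the fitted 24 h rhythm had a peak-to-trough size of 2.01 (SE 0.64) on the log2 scale for CecB and 1.57 to 1.70 for the other 3 genes, with fitted peaks between CT3.7 and CT4.2, on a scale that starts anew every 24 h. CecB had p = 0.0091 by limma's F test, and adjusted p = 0.21. None of the 4 genes was called rhythmic in any group, where 1.40% of all tested genes were called in female Achl RNAi heads, 1.60% in female controls, 1.02% in male Achl RNAi heads and 1.26% in male controls. A change of rhythm by Achl RNAi was called for none of them either, with 0.0189% of all tested genes called in females and 0% in males. In female Achl RNAi heads, sizes of up to 3.28 for CecB, 3.38 for CecA1 and 3.45 for CecA2 lay within the 95% intervals. In male controls the interval of CecA1 reached 3.68, so the data allow rhythms of up to these sizes.

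The second day did not differ from the first beyond the spread for any of the 4 genes in any group. CecA1 had a median of 682 TPM on the second day and 715 TPM on the first in female Achl RNAi heads, and of 1047 TPM on the second day and 1469 TPM on the first in male Achl RNAi heads. The log2 differences, second day minus first, were -0.45 (SE 0.64) in females and -0.68 (SE 0.64) in males under Achl RNAi, neither called by limma. Of all tested genes, 58.5% were called between the days in female Achl RNAi heads, 59.7% in female controls, 13.4% in male Achl RNAi heads and 0.104% in male controls.

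Low and high libraries were shared among the genes. Over the 24 female Achl RNAi libraries, on the log2(TPM + 1) scale, CecA1 correlated with CecA2 at r = 0.98 (rho = 0.96), with CecB at r = 0.94 (rho = 0.88) and with CecC at r = 0.94 (rho = 0.90), and each permutation p was 1e-05, the smallest the test can give (adjusted p = 3.2e-05 for r and 9.6e-05 for rho over 48 relations). Without the 2 libraries farthest from the median of CecA1 the r were 0.97, 0.90 and 0.91, and within the female sets they lay between 0.93 and 0.99. In male Achl RNAi libraries CecA1 correlated with CecA2 at r = 0.98 (rho = 0.90, permutation p = 1e-05 for both). There the relation of CecA1 with CecC was r = 0.80 (rho = 0.65, adjusted permutation p = 5.6e-05 and 0.0035), and with CecB r = 0.65 (rho = 0.48, adjusted permutation p = 0.0014 and 0.041). Without the 2 farthest libraries these were 0.64 and 0.49. Whether the relation of CecA1 with CecB differs between the sexes was not tested. The split of reads between CecA1 and CecA2 is uncertain, and its part in their r was not tested.

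**Figure D5:**
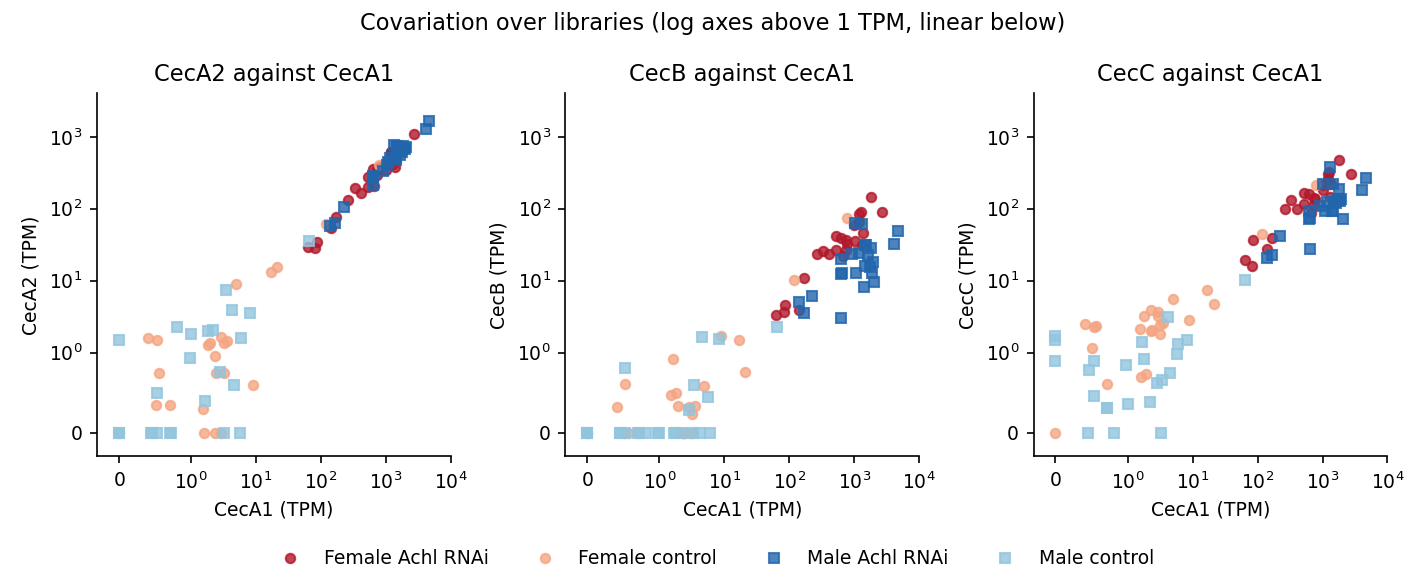
TPM of CecA2, CecB and CecC (y axes) against CecA1 (x axis) in every library of the 4 groups, on axes that are log above 1 TPM and linear below. CecA2 follows CecA1 closely in Achl RNAi libraries (r = 0.98 in each sex), and CecB lies lower at the same CecA1 in male than in female Achl RNAi libraries.

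In female controls the same relations had r between 0.91 and 0.93 and fell to between 0.61 and 0.71 without the 2 libraries farthest from the median of CecA1, those of CT24 and CT56, so part of each r rests on them. In male controls CecA1 had r = 0.73 with CecA2 and 0.63 with CecC, against 0.38 and 0.14 without the 2 farthest libraries, so these rest on those of CT52 and CT54.

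DptA followed all 4 cecropin genes in female Achl RNAi libraries, and CecA1 and CecA2 in male ones. In female Achl RNAi libraries its r was 0.88 with CecA1 (rho = 0.79), 0.85 with CecA2 (rho = 0.71), 0.80 with CecB (rho = 0.63) and 0.84 with CecC (rho = 0.65), with adjusted permutation p of 0.0045 or less for each. In male Achl RNAi libraries DptA had r = 0.89 with CecA1 (rho = 0.85) and 0.84 with CecA2 (rho = 0.70), with adjusted permutation p of at most 0.0008. With CecC it had r = 0.55 (rho = 0.41, adjusted permutation p = 0.010 and 0.10), and with CecB r = 0.43 (rho = 0.32, adjusted permutation p = 0.063 and 0.24), which did not pass. In female controls r lay between 0.85 and 0.91, and rho was 0.56 for CecA1, 0.71 for CecB, 0.51 for CecC and 0.28 for CecA2, where rho alone did not pass for CecA2 (adjusted permutation p = 0.31). In male controls r was 0.78 for CecA1 (rho = 0.53), 0.65 for CecC (rho = 0.57), 0.56 for CecB (rho = 0.28) and 0.55 for CecA2 (rho = 0.11), and rho did not pass for CecB (adjusted permutation p = 0.31) or CecA2 (0.72). Without the 2 libraries farthest from the median DptA level, r lay between 0.68 and 0.81 in female Achl RNAi libraries, 0.25 and 0.83 in male Achl RNAi libraries, 0.50 and 0.73 in female controls, and 0.16 and 0.56 in male controls. The remaining level of Achl had no detectable relation to any cecropin gene within the Achl RNAi groups, with r between -0.095 and 0.078 (adjusted permutation p of at least 0.89). Female and male Achl RNAi libraries of the same CT had no detectable relation either, with r of -0.019 for CecA1, -0.11 for CecA2, 0.0030 for CecB and -0.088 for CecC (adjusted permutation p of at least 0.88).

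The genes most like the 4 in level over all 96 libraries, by Pearson's r with their mean log2(TPM + 1), were AttB and AttA at 0.98, CR44404 and CG43236 at 0.97, AttC at 0.97 and CR45045 at 0.97. AttA, AttB and AttC encode attacins, glycine-rich antibacterial peptides. These r include the difference between the groups, and after the group means were taken off AttB (0.90), AttA (0.88), CG43236 (0.83), DptB (0.82), CR44404 (0.82) and AttC (0.80) led. Medians of AttA were 1056 TPM in female Achl RNAi heads against 7.40 TPM in female controls, and 897 TPM in male Achl RNAi heads against 7.92 TPM in male controls. On the same measures Rel had 0.85 and 0.56, and Achl -0.78 and -0.080.

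The other antimicrobial peptide genes rose with them. Of 11 listed, 10 were tested and all 10 were called higher in both sexes, where 4.70% of all tested genes were in females and 4.61% in males. AttD had control medians of 0.15 TPM in females and 0 TPM in males. It thus passed the filter only with the Achl RNAi libraries, and its call carries that limit. The median log2 difference of the 10 was 6.31 in females and 7.53 in males, where all tested genes had -0.18 and -0.16. Drs, which encodes the antifungal drosomycin, had a median of 1255 TPM in female Achl RNAi heads against 24.6 TPM in female controls, a log2 difference of 5.27, and AttA and Dro had 6.29 and 7.33. In males Drs had 7.52, Dro 8.28 and Mtk, which encodes metchnikowin, 7.54. The cecropin genes thus lay within the range of these peptide genes, from 0.82 for Def to 7.33 for Dro in females and from 1.22 for Def to 9.16 for DptA in males.

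In the Imd pathway, 28 of 30 listed genes were tested. Called higher were 9 in females and 8 in males, where 4.70% of all tested genes were called higher in females and 4.61% in males. The share called higher in the list was thus above that background in each sex. Called lower were 17 in females and 9 in males. The background was 55.7% of tested genes called lower in females and 53.5% in males, so the share called lower in the list was near that background in females and below it in males. The median log2 difference was -0.15 in females and -0.055 in males. Higher in both sexes were PGRP-LC, the main receptor, PGRP-LB, PGRP-LF and pirk, which dampen the pathway, PGRP-SD, PGRP-SB1, PGRP-SC2 and Rel, and imd had 0.14 (called) in females and -0.053 (not called) in males. PGRP-SD, a secreted peptidoglycan receptor, had a median of 120.6 TPM in female Achl RNAi heads against 11.3 TPM in female controls (log2 2.97) and of 159.7 TPM in male Achl RNAi heads against 21.7 TPM in male controls (2.71). PGRP-SB1, an amidase that cleaves peptidoglycan, had 3.25 in females and 2.33 in males, and PGRP-SC2, another amidase, 3.97 and 4.67. PGRP-SC2 had control medians of 0.17 TPM in females and 0.23 TPM in males, so it passed the filter only with the Achl RNAi libraries. Rel, which encodes Relish, had a median of 116.4 TPM in female Achl RNAi heads against 78.9 TPM in female controls (log2 0.69), and 135.9 TPM in male Achl RNAi heads against 74.1 TPM in male controls (0.85). Those called lower changed little: Tab2, a partner of the kinase Tak1, had -0.42 in females and -0.38 in males, and the ubiquitin enzyme genes Uev1A and ben had -0.21 and -0.32 in females. In males the lowest p among lower genes were those of Tab2, Uev1A (-0.20) and trbd (-0.17), which encodes a deubiquitinase.

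Small falls depend on the scaling. With each library centred on its median gene, 1188 genes were higher and 1163 lower in females, in place of 497 and 5885, and 1549 were higher and 1871 lower in males, in place of 487 and 5657. That is 11.2% higher and 11% lower in females, and 14.7% higher and 17.7% lower in males. The Imd list then had 9 higher and 4 lower in females and 12 higher and 1 lower in males. The cecropin genes kept their direction, at 4.24 for CecB to 6.93 for CecA1 in females and 4.02 for CecB to 8.67 for CecA1 in males.

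Of 10 listed transcription factors and partners that act on cecropin genes, 8 were tested. In females Rel, Dif and dl, the 3 NF-kappaB factors, were higher and srp, a GATA factor of the fat body and blood cells, Dsp1 and pdm2 were lower. In males Rel, Dif and dl were higher and srp was lower, and with centred values 4 in females and 5 in males were higher and 0 lower in each. Of all tested genes, 55.7% were called lower in females and 53.5% in males, so the share called lower in the list was below that background in each sex. Those called higher were 4.70% in females and 4.61% in males. Dif had 0.14 in females and 0.24 in males. The values of srp, -0.22 and -0.19, were near the median of all tested genes, -0.18 and -0.16.

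Markers of the tissues that make cecropins were measured in the same libraries. In bulk heads, fewer cells of a type and less RNA per cell cannot be told apart. Of 9 tested fat body markers, 0 were higher and 5 lower in females, and 0 were higher and 9 lower in males (with centred values 1 and 4 in females and 0 and 7 in males). The 5 in females are at the background of 55.7% of all tested genes called lower there, and in males that background was 53.5%. Their summed level lay between 2231 and 7688 TPM in female Achl RNAi heads, against 3657 to 6928 TPM in female controls, and between 1795 and 3141 TPM in male Achl RNAi heads, against 3861 to 4736 TPM in male controls. Pepck, which encodes an enzyme of glucose synthesis, fell by 1.19 in females and by 1.79 in males, and Lsp2, a storage protein gene, fell by 3.95 in males and had -0.070 in females. Of 10 blood cell markers, 4 were higher and 4 lower in females and 0 higher and 5 lower in males, and with centred values 5 and 0 in females and 1 and 2 in males. Their summed level lay between 396 and 782 TPM in female Achl RNAi heads, against 409.6 to 602 TPM in female controls, and between 366 and 505 TPM in male Achl RNAi heads, against 424 to 567 TPM in male controls. Of 6 gut markers, lambdaTry, alphaTry, betaTry and Jon65Ai had a median of 0 TPM in every group, and Npc2f and Mal-A1 did not. The 6 summed to medians of 9.3 TPM in female Achl RNAi heads against 9.9 TPM in female controls. In males these were 11.9 TPM under Achl RNAi against 9.2 TPM in controls. Only 2 of the 6 were tested, with 0 called in females and 1 higher and 1 lower in males. Of 9 photoreceptor markers, which define heads, 0 were higher and 8 lower in females and 0 higher and 7 lower in males, and with centred values 1 and 4 in each sex. They summed to medians of 30544 TPM in female Achl RNAi heads against 57629 TPM in female controls and 30146 TPM in male Achl RNAi heads against 47496 TPM in male controls. The difference in that sum is mostly that of ninaE, named after its values were seen, which encodes the main rhodopsin and had medians of 11974 TPM in female Achl RNAi heads against 34266 TPM in female controls and 10327 TPM in male Achl RNAi heads against 26419 TPM in male controls. ninaE had log2 differences of -1.46 in females and -1.27 in males, and trpl, a channel gene, -1.07 in females and -1.0 in males. The other 7 lay between -0.42 and 0.15 in females and between -0.37 and -0.019 in males. The part of these markers in the cecropin result was not tested.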

How the data were processed

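Stranded mRNA libraries were made from 200 ng of total RNA, per the labels' protocols. Per the submitters' processing notes, the authors used STAR, RSEM and the build dm6. The versions of both tools are not given in the sources used. What they deposited is TPM, 1 column per library, beside gene length and effective length in bases. No counts are used here, so depth is unknown and no counting interval is given.

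Genes that reached 1 TPM in 24 or more libraries, 10568 in all, were fitted on log2(TPM + 1) with limma 3.58.1 (R 4.3.3, trend and robust), with a mean, cosine and sine of period 24 h per group and, for days, a mean per group and day. Tests were two-sided and adjusted by Benjamini-Hochberg over all tested genes, with a threshold of 0.05. Same-CT differences, orders and shares were tested by flipping signs, and correlations by permutation (100000 resamples, or all where exact), with Python 3.11.15. Scripts were tested on simulated data. Positions come from the Ensembl release 115 annotation of dm6.

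The members, gene lists, tests and alternatives were chosen with earlier results of these data known. The named genes are the members, Achl, in the Imd and peptide lists the 3 of lowest p in each direction and sex, the 6 most like the members, and every gene within 20 kb, but the snoRNA genes inside RpS7 and CG15531 are not described. Other genes named from lists were chosen after their values were seen. DptA and Achl were related to each member in place of the planned sum. Promoter motifs were planned and not analysed here.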

Additional observations from a re-analysis of the deposited data

Results flagged for a closer look

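The effect of Achl RNAi passed limma's test of its difference between the sexes (female minus male, log2) for 10 of the other genes named here or above, and for none of the 4 cecropin genes, where 14.1% of tested genes passed. Among the 10 tested peptide genes, 4 were called and each was smaller in females, at -2.24 (adjusted p = 1.5e-05) for Drs, -2.07 (adjusted p = 0.048) for DptA, -1.98 (adjusted p = 0.034) for DptB and -1.23 (adjusted p = 0.011) for AttD. AttD passed the filter on low values only with the Achl RNAi libraries. The 10 genes that passed this test between the sexes come from no fixed list, since some were named after their values were seen. In the Imd pathway, 2 of 28 tested genes were called with a positive difference and 2 with a negative one, near the background of 14.1%. The difference was 0.92 (adjusted p = 0.047) for PGRP-SB1, 0.19 (adjusted p = 0.044) for imd, -0.27 (adjusted p = 9.1e-04) for ben and -0.21 (adjusted p = 0.021) for Tak1. For the factor gene Dsp1 it was -0.38 (adjusted p = 6.0e-04). Of 9 tested fat body markers, 4 were called with a positive difference and 0 with a negative one. Of 10 blood cell markers, 3 and 0 were. For the fat body marker Lsp2 the difference was 3.88 (adjusted p = 1.2e-04), with -0.070 in females and -3.95 in males. The control medians of Lsp2 were 50.9 TPM in females and 533 TPM in males.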

How the results depend on the processing

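All 4 cecropin genes stayed higher under Achl RNAi in both sexes in every alternative run, and CecA1 and CecC stayed called. The runs include leaving out each of the 96 libraries in turn (CecA1 6.63 to 7.10 in females and 8.41 to 8.68 in males, log2). No member was called rhythmic, or changed between days, in any of them. In 559 of 610 results and settings, leave-one-out ones aside, direction and call were the same; 20 lost a call, 11 gained one, 17 turned in sign, none of them called, and 3 counts moved; the cause was not tested. Centring on the median gene gave 1188 genes higher in females and 1549 in males, in place of 497 and 487, and the second day alone called 513 genes for the difference between sexes in place of 1493. That difference passed for CecA1 at a pseudocount of 5 (-1.48), with CT as a replicate block (-1.74, adjusted p = 0.044 by limma), in female libraries of low mt:lrRNA (-2.18; CecA2 -1.96) and without the 3 high control libraries (-1.38). Leaving out 1 library made CecA1 pass in 24 cases (range over all -1.92 to -1.40): female Achl RNAi CT24, 26, 40, 44, 56, 62 and 68, male Achl RNAi CT44, 52 and 56, female control CT26, 30, 32, 36, 38, 46, 48, 50, 54, 62 and 70, and male control CT36, 54 and 70. CecA2 passed without male control CT54 (range -1.70 to -1.20), and CecB turned to -0.46 at a pseudocount of 0.1.

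Between female and male Achl RNAi heads, CecA1 lost its call at a pseudocount of 0.1 (-0.99), with no filter (-0.98), with centring (-0.95), on the first day (-1.10), on the second (-0.87) and at high mt:lrRNA (-0.72). CecB lost its call at a pseudocount of 0.1 (0.72), with no filter (0.70), on the first day (0.63), on the second (0.77), and at low (0.59) and high (0.75) mt:lrRNA. CecA2 gained one at a pseudocount of 5 (-0.88), and without the female control library of CT56 or the 3 high control libraries (-0.90 in both). Leaving out 1 library, CecA1 ranged from -1.13 to -0.88 and lost its call without female CT30, 34, 36, 42, 46, 48, 50, 64, 66 or 70, or male CT24, 26, 28, 30, 32, 34, 38, 42, 46, 54, 60, 62, 68 or 70. CecB ranged from 0.60 to 0.81 and lost it without female CT24, 26, 38, 40, 44, 56, 60, 62 or 68, or male CT36, 38, 44, 52, 54, 56, 66, 68 or 70. CecA2 ranged from -1.04 to -0.78 and gained one in 9 cases. In controls the sex difference of CecC was 0.79 and not called at high mt:lrRNA, and that of CecB was 1.19 and called at a pseudocount of 0.1.

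Differences between days turned in sign in controls. At a pseudocount of 0.1 they were -0.40 for CecB in females, and -0.083 for CecA1, -0.56 for CecA2 and -0.086 for CecB in males. For CecB in females the value was -0.10 with centring, -0.44 without the library of CT56 and -0.19 without the 3 high libraries; without CT56 CecA2 in females had -0.019. Without the 3 high libraries males had -0.19 for CecA1, -0.36 for CecA2 and -0.082 for CecB. Leaving out 1 library gave -0.41 to 0.12 for CecA2 in female Achl RNAi heads, -0.019 to 1.05 for CecA2 and -0.44 to 0.34 for CecB in female controls, and -0.19 to 0.34 for CecA1, -0.36 to 0.22 for CecA2 and -0.082 to 0.13 for CecB in male controls. At a pseudocount of 0.1 the order in male controls had CecA1 minus CecC at 0.90, not called, and CecA2 minus CecC at -0.26.

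Among CTs with a sum of 10 TPM or more, Achl RNAi minus control shares were 13.6 for CecA1, -4.71 for CecA2 and -6.67 for CecC in females, and 23.7, -12.7 and -7.48 in males, none called. For female minus male Achl RNAi shares, CecA1 was -3.19 at high mt:lrRNA and -5.26 on the first day, not called. CecA2 was -3.84 at high mt:lrRNA and -3.23 on the first day, called, and 0.17 at low mt:lrRNA and 0.56 on the second day. The CecB and CecC calls held in all 4 of these subsets. The subsets are not 4 separate checks, as 12 of the 15 female Achl RNAi libraries of low mt:lrRNA came from the second day. CTs were not replicated, and depth is unknown, so values near 0 TPM set no floor.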
